A study of Mus musculus with 5 samples.

Results

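A set of 10 enzymes that reduce, oxidise or sulfate steroids was followed, chosen by gene symbol: Hsd11b1, Sult1e1, Srd5a1, Akr1cl, Akr1c14, Akr1c18, Akr1b7, Hsd17b11, Hsd17b4 and Hsd17b10. Of these 10 genes, 8 had a named probe among the 19084 genes measured, each with 1 probe, and Srd5a1 and Akr1b7 are not analysed here. The data are intensities from 5 single-colour mouse arrays. MEF, with 1 array, stands for embryonic fibroblasts that received a mock vector, grown from 13.5 days post coitus embryos without head and viscera. For iLC, short for the submitters' induced Leydig-like cells and measured on 2 arrays, fibroblasts of that embryonic age were transduced with Dmrt1, Gata4 and Nr5a1. Leydig, also on 2 arrays, stands for cells from the testis of mice aged 56 days. The protocol text gives 12 hours of exposure to lentivirus and then a medium holding 50 ng/ml IGF plus 10 ng/ml PDGFAA. The same words are given for all samples, and whether the MEF cells had this medium cannot be read from them. Strain, sex, the promoter that drove the factors and the purity of the Leydig preparation are not given either, and nothing says that the arrays of a pair came from separate cultures or animals, so p-values reflect only how far paired arrays differ, which may be technical.

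Steroid hormones are made from cholesterol by a short chain of P450 enzymes and dehydrogenases, and a second layer of enzymes then sets how active each product is in the cell. Reductases and hydroxysteroid dehydrogenases of the aldo-keto reductase and short-chain dehydrogenase families switch a steroid between active and weak forms, and sulfotransferases make it water-soluble and unable to bind its receptor. Leydig cells, the androgen source of the testis, are known for several of these enzymes. Hsd11b1 interconverts active and inert glucocorticoid, and Sult1e1 is the estrogen sulfotransferase. Srd5a1 and Akr1c14 are a 5-alpha reductase and a 3-alpha-hydroxysteroid dehydrogenase that act in turn on androgens. Akr1c18 is the 20-alpha-hydroxysteroid dehydrogenase that inactivates progesterone. Akr1cl is named for its likeness to the Akr1c enzymes. Hsd17b11 resides on lipid droplets, Hsd17b4 is the multifunctional enzyme of peroxisomal beta-oxidation, and Hsd17b10 is a mitochondrial enzyme of isoleucine breakdown and a subunit of mitochondrial RNase P.

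Each library holds RNA of a whole preparation, so fewer cells of a type and less RNA per cell cannot be told apart. The Leydig arrays differed in some markers of other cells, since summed germ cell markers read 30210 on replicate 1 and 390300 on replicate 2, and summed fibroblast markers 112300 and 26990. Most of the fibroblast sums there came from Col1a2 and Col3a1, while Postn, Thy1 and Tbx15 read higher on replicate 2. The differences below, other than most of those of the cell markers, are therefore also given without single arrays where that ends a call. Of the delivered factors, Nr5a1 read 1265 (MEF), 1509 and 1158 (iLC), Gata4 6773, 4127 and 3150, and Dmrt1 397 in MEF and at most 427 in iLC, none of them called between iLC and MEF. Whether these probes lie in the delivered sequence is not known, so they do not check the labels.

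Between iLC and MEF, 0 of the 8 enzymes passed the test (limma on log2(value + 16), Benjamini-Hochberg adjusted p under 0.05 over all 19084 genes, called below), and 2 had an unadjusted p under 0.05. The test called 0.571% of all genes in that comparison (0.283% higher, 0.288% lower), and 15.8% had an unadjusted p under 0.05. Between iLC and Leydig cells 4 of 8 were called: Akr1cl, Akr1c14 and Hsd17b10 were lower in iLC, and Akr1c18 was higher. There 11.4% of all genes were called, 5.69% lower and 5.74% higher, and 6 of the enzymes against 26.8% of all genes had an unadjusted p under 0.05. Between Leydig cells and MEF 3 of 8 were called, with Akr1cl and Akr1c14 higher in Leydig cells and Akr1c18 lower, against 7.38% of all genes (3.39% higher, 3.99% lower), and 5 against 19.9% had an unadjusted p under 0.05. The median log2 difference of the 8 enzymes was 0.43 for iLC minus MEF, -0.70 for iLC minus Leydig and 1.60 for Leydig minus MEF, and that of all genes was -0.11, -0.032 and -0.10. Groups that did not overlap were frequent among all genes. Between iLC and MEF, 5 enzymes were higher in iLC and 1 lower without overlap, against 34% and 44.4% of all genes (78.4% in both directions). Between iLC and Leydig cells, 2 were higher and 4 lower, against 28.9% and 29% (57.9% in both). Between Leydig cells and MEF, 5 were higher and 2 lower, against 33% and 44.1% (77.1% in both). The comparisons share arrays, so their values are set side by side and not correlated.

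**Figure D1:**
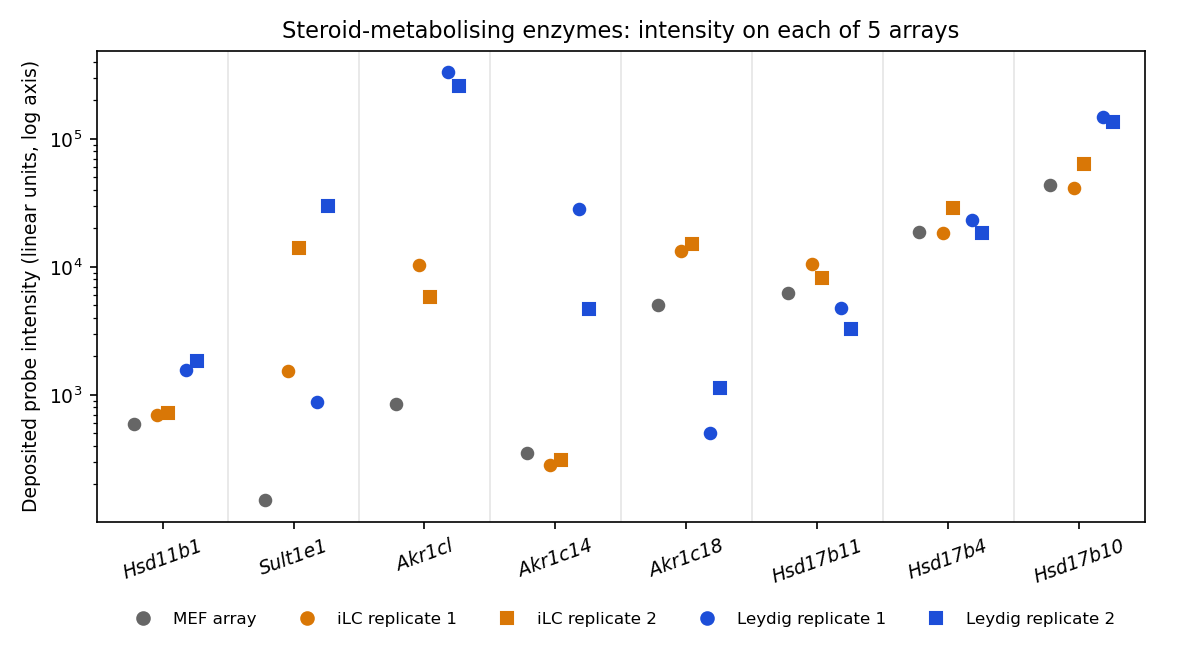
Deposited probe intensity (linear units on a log axis) of the 8 measured enzymes on each of the 5 arrays, with circles for the MEF array and for replicate 1 and squares for replicate 2. Akr1cl reads 849 (MEF), 10349.6 and 5789 (iLC) and 331058 and 258057 (Leydig), while Sult1e1 has a bright and a dim array in each pair.

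Promoters are shown for the 4 enzymes whose log2 values spanned 2 or more over the arrays. Of these, Sult1e1 was called in no comparison. Hsd17b10, called between iLC and Leydig cells, spanned 1.83 and is not shown. Each sequence is the 250 bases before the gene's annotated start, 5′ to 3′ on the gene's strand, from RefSeq on GRCm38.p6. It lies at chr5:87591612-87591861 (minus strand) for Sult1e1, chr1:65032760-65033009 (minus strand) for Akr1cl, chr13:4059341-4059590 (plus strand) for Akr1c14 and chr13:4150647-4150896 (minus strand) for Akr1c18. Capitals mark matches, on either strand, to letters of binding elements of the 3 delivered factors. These letters were chosen after the sequences had been seen: AAGGTCA and AAGGCCA for Nr5a1, AGATAA for Gata4 and ACANTGT for Dmrt1.
Sult1e1: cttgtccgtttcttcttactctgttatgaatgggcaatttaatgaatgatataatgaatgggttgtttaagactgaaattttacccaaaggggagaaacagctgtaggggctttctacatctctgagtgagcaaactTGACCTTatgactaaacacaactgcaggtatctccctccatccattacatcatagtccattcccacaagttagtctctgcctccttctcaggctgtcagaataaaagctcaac
Akr1cl: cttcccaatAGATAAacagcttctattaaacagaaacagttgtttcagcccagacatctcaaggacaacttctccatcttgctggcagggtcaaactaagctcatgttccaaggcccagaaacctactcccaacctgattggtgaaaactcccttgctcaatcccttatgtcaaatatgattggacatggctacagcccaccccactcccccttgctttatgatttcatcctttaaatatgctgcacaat
Akr1c14: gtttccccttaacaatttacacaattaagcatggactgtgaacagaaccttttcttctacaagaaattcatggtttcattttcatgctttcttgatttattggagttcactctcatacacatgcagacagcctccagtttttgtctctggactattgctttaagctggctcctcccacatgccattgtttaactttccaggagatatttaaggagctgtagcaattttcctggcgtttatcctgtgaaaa
Akr1c18: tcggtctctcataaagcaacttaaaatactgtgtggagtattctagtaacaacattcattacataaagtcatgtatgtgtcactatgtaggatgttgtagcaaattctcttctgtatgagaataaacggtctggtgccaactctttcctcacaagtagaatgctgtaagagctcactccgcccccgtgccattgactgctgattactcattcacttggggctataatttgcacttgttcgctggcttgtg
The Sult1e1 window holds AAGGTCA on the opposite strand, 113 to 107 bases before the start, and the Akr1cl window holds AGATAA, 241 to 236 bases before the start. The Akr1c14 and Akr1c18 windows hold none of these letters. Among 32851 promoter windows of that length, 4.08% held AAGGTCA, 5.24% AAGGCCA, 9.99% AGATAA and 6.47% ACANTGT. No 2 of the searched elements share a letter in these windows. Of the other measured enzymes, Hsd11b1 had ACATTGT 134 to 128 bases before its start, and Hsd17b11 and Hsd17b10 had no match. A match is a string of letters, not a site shown to be bound.

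Akr1cl had the widest range of the 8 enzymes over the arrays. Its intensity was 849 (MEF), 10349.6 and 5789 (iLC), and 331058 and 258057 (Leydig). The 3 groups did not overlap, with MEF lowest, iLC between and Leydig highest. The log2 difference was 8.40 ± 0.48 (SE, 95% interval 7.23 to 9.57, limma adjusted p = 0.00137) between Leydig cells and MEF, and 0.0524% of all genes had a larger difference in size. In iLC it was below the Leydig level by a difference of -5.24 ± 0.39 (adjusted p = 0.0015), a 37.7-fold lower level. Above MEF it stood by 3.16 ± 0.48 (95% interval 1.99 to 4.34), 8.96-fold, which did not pass (adjusted p = 0.0611). That difference was within the threshold under 6 of 14 other settings, with adjusted p from 0.0249 to 0.189 over all 14, and both iLC arrays read above the MEF array. Its differences from the Leydig arrays were called under every setting tried, also with any single one of them left out.

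Akr1c14, the 3-alpha-hydroxysteroid dehydrogenase, read at the Leydig level in neither fibroblast group. It stood at 351 (MEF), 284 and 312 (iLC), and 28328 and 4675 (Leydig). Both Leydig arrays were far above the other 3, and the iLC and MEF readings lay at the 25.9th to 26.6th percentile of their arrays, where an array's own offset can move a value. The log2 difference was -5.20 ± 0.80 (SE, limma adjusted p = 0.0112) between iLC and Leydig cells and 4.98 ± 0.98 (adjusted p = 0.0336) between Leydig cells and MEF. Between iLC and MEF it was -0.23, with a 95% interval of -2.59 to 2.14, and it turned to 0.12 when the low ends of the arrays were aligned. The Leydig arrays stood 6.06-fold apart for this gene, and 1.04% of all genes had a wider gap in that pair. Without iLC replicate 1 or iLC replicate 2 the call between iLC and Leydig cells was lost (adjusted p = 0.0674 and 0.0595), and so was the call against MEF (adjusted p = 0.0701 in both cases), which was also lost when 1 was added in place of 16 (0.0668) and with aligned low ends (0.0698). Without Leydig replicate 1 the difference between iLC and Leydig cells was -3.90, and without Leydig replicate 2 it was -6.50.

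Akr1c18, which inactivates progesterone, ran in the other direction from Akr1c14. Its intensity was 5033 (MEF), 13319 and 15038 (iLC), and 508 and 1127 (Leydig). The groups did not overlap, with iLC highest, MEF between and Leydig lowest. It was 18.3-fold higher in iLC than in Leydig cells (log2 difference 4.19 ± 0.44 SE, limma adjusted p = 0.0032), a call kept under all 16 alternatives. Between Leydig cells and MEF the difference was -2.71 ± 0.54 (adjusted p = 0.0353), a call that ended when any single iLC or Leydig array was left out (highest adjusted p = 0.0793), when 1 was added (0.0646) and with aligned low ends (0.0723). Between iLC and MEF it was 1.49 ± 0.54 (95% interval 0.18 to 2.80) and did not pass (adjusted p = 0.267, with a range of 0.202 to 0.481 over 14 alternatives).

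**Figure D2:**
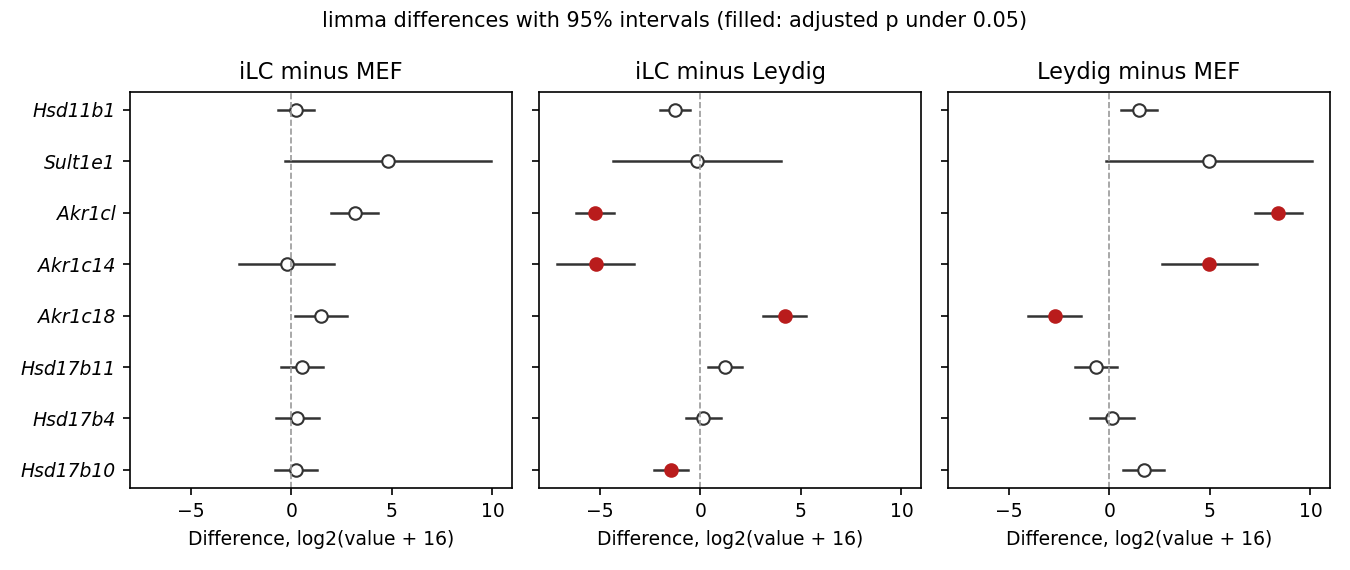
Differences in mean log2(value + 16) between groups for the 8 enzymes (points) with 95% intervals from limma (lines), in 3 panels for the 3 comparisons; filled points had an adjusted p under 0.05. No point is filled for iLC minus MEF, 4 are filled for iLC minus Leydig and 3 for Leydig minus MEF, and Sult1e1 has the widest intervals.

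Akr1c14 and Akr1c18 are next to each other on mouse chromosome 13, in a row of 9 annotated Akr1c and Akr1e genes of which 8 were measured. In chromosome order, the measured genes were Akr1c14, Akr1c18, Akr1c13, Akr1c19, Akr1c6, Akr1c20, Akr1c21 and Akr1e1. Akr1c13 read 487.5 (MEF), 665 and 625 (iLC), and 2137 and 2021 (Leydig). It was called between iLC and Leydig cells (log2 difference -1.66, limma adjusted p = 0.0193) and between Leydig cells and MEF (2.06, adjusted p = 0.0253), both lost when any single iLC or Leydig array was left out. The other 5 neighbours gave no call in any comparison. Akr1c19, Akr1c6 and Akr1c21 were dim, at 527 or lower on every array, and Akr1e1 read between 2834 and 4358. Akr1cl, in contrast, lies on chromosome 1. Probe sequences were not used here, so whether a probe of this family also binds a near-identical copy is not known.

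**Figure D3:**
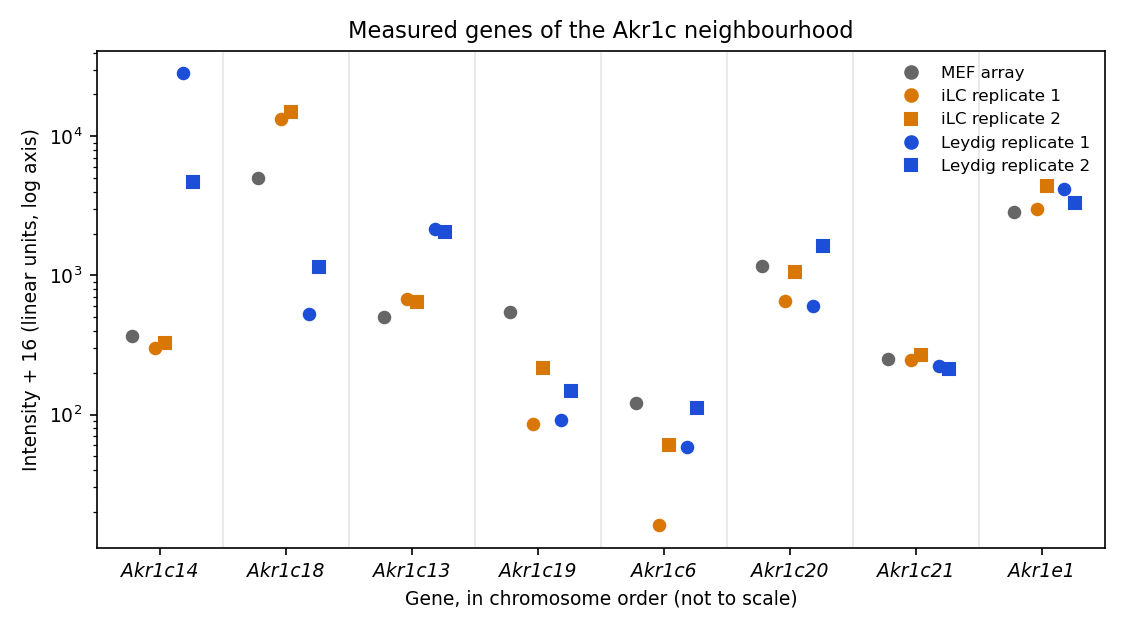
Intensity plus 16, with values below 0 set to 0 (linear units on a log axis), of the 8 measured genes of the Akr1c row in chromosome order, not to scale, on the 5 arrays. Akr1c14 and Akr1c13 are highest on the Leydig arrays, Akr1c18 is highest on the iLC arrays, and the other 5 genes gave no call.

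Sult1e1, the enzyme that sulfates estrogens, differed widely between the arrays of each pair. It read 150.2 (MEF), 1543 and 14118 (iLC), and 888 and 30056 (Leydig). All 4 iLC and Leydig arrays were above the MEF array, and the iLC and Leydig ranges overlapped. The iLC arrays stood 9.15-fold apart and the Leydig arrays 33.8-fold, and 0.0838% and 0.194% of all genes had wider gaps in those pairs, where the median gap was 0.37 log2 in each. The differences from MEF, 4.82 ± 2.11 (SE) for iLC and 4.97 ± 2.11 for Leydig cells, did not pass (limma adjusted p = 0.34 and 0.265). Between iLC and Leydig cells the difference was -0.15 with a 95% interval of -4.34 to 4.04, and it was 1.44 without iLC replicate 1 and 2.38 without Leydig replicate 2. That interval holds differences of more than 4 log2 units in either direction. Leydig replicate 2, the brighter array, also had the higher germ cell marker sum, whose part in the gap was not tested.

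**Figure D4:**
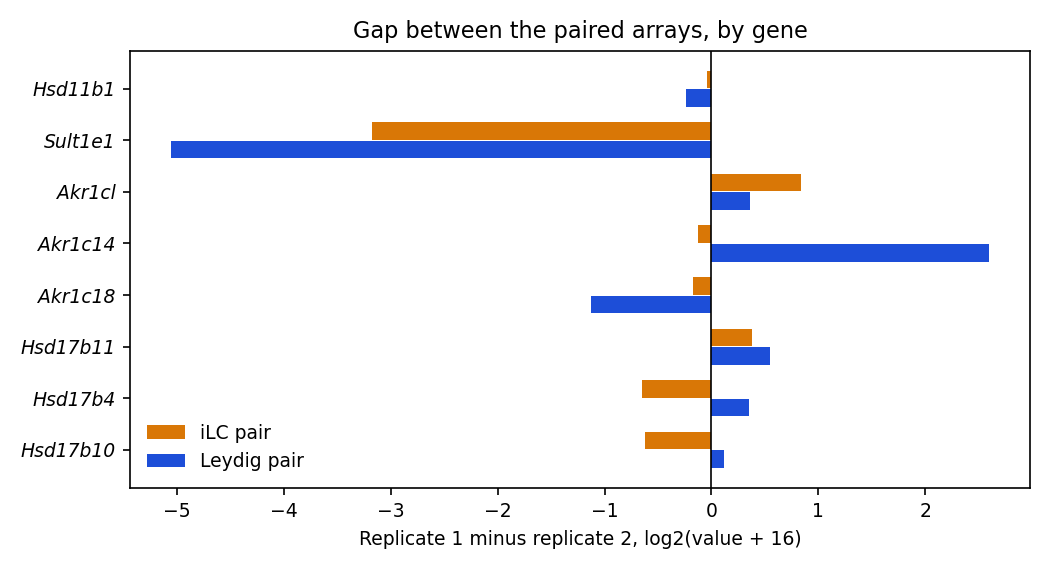
Replicate 1 minus replicate 2 in log2(value + 16) for each enzyme (bars), in the iLC pair and in the Leydig pair. Sult1e1 has gaps of -3.18 and -5.06 and Akr1c14 a gap of 2.60 in the Leydig pair, while the other bars lie between -1.13 and 0.84.

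Hsd11b1, the glucocorticoid-activating enzyme of adult Leydig cells, read highest on the Leydig arrays. It stood at 593 (MEF), 698 and 717 (iLC), and 1559 and 1843 (Leydig). The pairs were tight and no groups overlapped. The log2 difference of -1.24 ± 0.31 (SE, 95% interval -1.98 to -0.50) between iLC and Leydig cells fell just outside the threshold (limma adjusted p = 0.0523) and inside it under 7 of 16 alternatives, with a range of 0.0304 to 0.195. Between Leydig cells and MEF it was 1.49 (adjusted p = 0.0716), inside under 3 of 14 alternatives. The iLC and MEF levels differed by 0.25 (adjusted p = 0.801), and the interval of -0.66 to 1.16 holds a difference of 0.

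The 3 enzymes named as 17-beta-hydroxysteroid dehydrogenases spanned 0.66 to 1.83 log2 units over the arrays. Hsd17b10 read 43258 (MEF), 41432 and 63875.5 (iLC), and 147196 and 135495 (Leydig). Its Leydig arrays were above the other 3, and its iLC arrays lay on either side of the MEF array. It was lower in iLC than in Leydig cells by a log2 difference of -1.46 ± 0.35 (SE, limma adjusted p = 0.048), a call that ended when any single iLC or Leydig array was left out (highest adjusted p = 0.206), when 1 was added in place of 16 (0.0699) and with aligned low ends (0.0651). Against MEF the Leydig difference of 1.71 did not pass (adjusted p = 0.0709) but did under 5 of 14 alternatives (lowest adjusted p = 0.0399), and the iLC difference was 0.25 (adjusted p = 0.828).

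Hsd17b11, the lipid droplet enzyme, read 6292 (MEF), 10529.7 and 8113 (iLC), and 4790.3 and 3266 (Leydig). The groups did not overlap and iLC stood highest, as for Akr1c18, but no difference passed: 1.22 between iLC and Leydig cells (limma adjusted p = 0.0811), 0.55 between iLC and MEF (0.597) and -0.67 between Leydig cells and MEF (0.477). Hsd17b4, the peroxisomal enzyme, read 18708 (MEF), 18479 and 29049 (iLC), and 23332 and 18349.9 (Leydig). Its groups overlapped in all 3 comparisons, and it had the narrowest range of the 8 enzymes, 0.66 on the log2 scale. Its differences were 0.31 (95% interval -0.77 to 1.39) for iLC minus MEF, 0.16 (-0.72 to 1.05) for iLC minus Leydig and 0.15 (-0.94 to 1.23) for Leydig minus MEF.

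Genes with the most similar pattern were sought by the Euclidean distance between log2 values centred on their own mean, over 5 arrays and 17059 other genes. For Akr1c18 they were Pla2g7, which encodes the platelet-activating factor acetylhydrolase (distance 0.404), the glutamine transporter gene Slc38a1 (0.483) and Ociad2 (0.576), where the median gene was at 4.39. Pla2g7 read 16328 (MEF), 54602 and 49644 (iLC), and 2332 and 4144 (Leydig). For Akr1c14 they were Rasd1 (0.625), Sult1a1 (0.695) and the stromal and endothelial surface gene Cd34 (0.741), with a median of 5.99. Sult1a1, a phenol sulfotransferase, read 416 (MEF), 496 and 572 (iLC), and 33646 and 9198 (Leydig), and so shared the wide Leydig pair. Sult1e1 was nearest to Ptgds, the prostaglandin D synthase (1.69), then Spink4 (3.04) and Cdhr5 (3.13), with a median of 6.20. Ptgds read 408 (MEF), 12887 and 58864 (iLC), and 2214 and 235608 (Leydig), so its dim and bright arrays were those of Sult1e1. Akr1cl was nearest to Rtn4rl1 (1.45), the glutathione S-transferase gene Gsta3 (1.80) and Susd3 (1.87), with a median of 7.51. With 5 arrays these distances describe the arrays only.

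Of 11 measured aldo-keto reductase genes outside the set, 0 were called between iLC and MEF (median log2 difference 0.39). Akr1c19 read 527 (MEF) and 69.8 and 199 (iLC), and Akr1c6 read 105 (MEF) and -6.75 and 44.4 (iLC), near the low ends of the arrays, where their offsets differ. In iLC against Leydig cells, where 11.4% of all genes were called, 0 were higher and 2 lower, Akr1c13 and Akr1a1 (-1.43, limma adjusted p = 0.0327), with a median of -0.25. In Leydig cells against MEF, where 7.38% of all genes were called, 2 were higher and 0 lower, Akr1a1 (2.70, adjusted p = 0.0116) and Akr1c13, with a median of 0.39. Akr1a1 is the general aldehyde reductase. Its call against iLC was lost when any single iLC or Leydig array was left out, and its call against MEF without either Leydig array.

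Among 15 other dehydrogenases and their partners, H6pd makes the NADPH that Hsd11b1 uses. It read 17740 (MEF), 16093 and 12090.5 (iLC), and 77856 and 82661 (Leydig). It was lower in iLC than in Leydig cells (log2 difference -2.52, limma adjusted p = 0.00605, lost without Leydig replicate 2) and higher in Leydig cells than in MEF (2.18, adjusted p = 0.0261, lost when any single iLC or Leydig array was left out). Hsd11b2, which inactivates glucocorticoid, read 1086 (MEF), 2874 and 4978 (iLC), and 1024 and 775 (Leydig). It was higher in iLC than in Leydig cells (2.07, adjusted p = 0.0225), a call lost without iLC replicate 2 or either Leydig array. Hsd3b7, an enzyme of bile acid synthesis, was lower in iLC than in Leydig cells (-2.30, adjusted p = 0.0108, lost without either iLC array or Leydig replicate 1) and higher in Leydig cells than in MEF (2.70, adjusted p = 0.0178, lost without either Leydig array). Hsd3b1, the enzyme that makes progesterone, was the 1 gene of that list called between iLC and MEF (5.18, adjusted p = 0.0331, lost when any single iLC or Leydig array was left out, and under 2 of 9 other alternatives). It was also lower in iLC than in the Leydig cells (-2.24, adjusted p = 0.0303, lost without either iLC array or Leydig replicate 1, and under 2 of 11 other alternatives) and was higher in Leydig cells than in MEF (7.42, adjusted p = 0.00308). Counts over the list were 1 higher and 0 lower for iLC against MEF (median 0.25), where 0.571% of all genes were called. For iLC against Leydig cells they were 1 higher and 3 lower (median -0.028), where 11.4% of all genes were called. For Leydig cells against MEF they were 3 higher and 0 lower (median 0.22), where 7.38% were called. The same shares of all genes stand beside the counts of the lists and cell markers below.

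Among 13 other sulfotransferases and genes of the sulfate donor, Sult1a1 was lower in iLC than in Leydig cells (log2 difference -5.00, limma adjusted p = 0.00535) and higher in Leydig cells than in MEF (5.35, adjusted p = 0.0126), both also with any single iLC or Leydig array left out. Sult3a1 (1.82, adjusted p = 0.0337) and the brain sulfotransferase gene Sult4a1 (1.77, adjusted p = 0.0483) were higher in iLC than in Leydig cells. Sult3a1 was dim, at 150 or lower on every array, and both calls were lost without iLC replicate 2 or Leydig replicate 2, that of Sult3a1 also without iLC replicate 1 and under 5 of 10 other alternatives, and that of Sult4a1 also without Leydig replicate 1 and under 3 of 11. Between iLC and MEF 0 were called (median 0.18), with Sult2b1, which sulfates cholesterol, at 2.22. Sult1b1 read 121 (MEF) and 2.25 and 64.0 (iLC), near the low ends of the arrays. The donor enzyme Papss1 differed by -1.18 between iLC and Leydig cells without passing (adjusted p = 0.0656). The list's medians were -0.15 for iLC minus Leydig and 0.13 for Leydig minus MEF.

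Receptors and response genes of the steroids these enzymes act on were read next. Of 8 measured steroid receptors, 0 were called between iLC and MEF (median log2 difference 0.40), with Gper1 at -1.56 and Esr1 at 0.72. Esr1, the estrogen receptor alpha gene, read 411 (MEF), 615 and 767 (iLC), and 10872 and 16255 (Leydig). It was lower in iLC than in Leydig cells (-4.24, limma adjusted p = 0.00183) and higher in Leydig cells than in MEF (4.96, adjusted p = 0.00392), also with any single iLC or Leydig array left out. The membrane estrogen receptor gene Gper1 was the other called receptor, lower in iLC than in Leydig cells (-2.22, adjusted p = 0.045), a call lost without iLC replicate 2 or either Leydig array, and under 2 of 11 other alternatives. The list gave 0 higher and 2 lower for iLC against Leydig cells (median -0.89) and 1 higher and 0 lower for Leydig cells against MEF (median 0.62). The glucocorticoid receptor gene Nr3c1 was called in none.

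Of 13 glucocorticoid response genes, 0 were called between iLC and MEF (median log2 difference 0.41), where Lcn2 (5.27, limma adjusted p = 0.0798) and Fkbp5 (-1.65) had the largest differences. Fkbp5, a co-chaperone of steroid receptors, read 11145 (MEF), 3329 and 3778 (iLC), and 27767 and 46285 (Leydig). It was lower in iLC than in Leydig cells (-3.33, adjusted p = 0.00377), as was Zbtb16 (-4.01, adjusted p = 0.00611, lost without Leydig replicate 2), while the clock gene Per1 was higher (1.45, adjusted p = 0.0402, lost when any single iLC or Leydig array was left out, and under 2 of 11 other alternatives). The median of that comparison was 0.0071. In Leydig cells Lcn2 (7.53, adjusted p = 0.00938) and Zbtb16 (3.50, adjusted p = 0.0256, lost without either Leydig array, and under 2 of 9 other alternatives) were higher than in MEF, with 0 lower and a median of 0.42.

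Gene lists for the processes of the 3 Hsd17b enzymes were read beside the 11.4% of all genes called between iLC and Leydig cells. For Hsd17b4, 14 genes of peroxisomal beta-oxidation were measured, and 1 was called, the thiolase gene Acaa1b, higher in iLC than in Leydig cells (log2 difference 3.32, limma adjusted p = 0.0163, lost without iLC replicate 1 or either Leydig array). The list's medians were 0.35 for iLC minus MEF, -0.59 for iLC minus Leydig and 0.98 for Leydig minus MEF, and Acaa1b stood at 2.97 between iLC and MEF without passing. Abcd2 read 157 (MEF) and 28.1 and 34.1 (iLC), near the low ends of the arrays. Between Leydig cells and MEF 0 were called, with Crot at 1.57 and Ehhadh at 1.53. For Hsd17b11, 17 lipid droplet genes were measured. The lipase gene Lipe was higher in iLC than in Leydig cells (2.67, adjusted p = 0.00699, lost without Leydig replicate 2) and lower in Leydig cells than in MEF (-2.70, adjusted p = 0.0189, lost without either Leydig array). Plin1, a droplet coat protein gene, was lower in iLC than in Leydig cells (-3.24, adjusted p = 0.047, lost without either iLC array or Leydig replicate 2, and under 2 of 11 other alternatives). The droplet medians were 0.19, -0.06 and 0.22 in the same order, and 0 genes were called between iLC and MEF, with Mgll at -1.87 and Dgat2 at 1.84.

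For Hsd17b10, 12 genes of branched-chain amino acid breakdown and mitochondrial RNase P were measured. Acat1, the thiolase that follows Hsd17b10 in isoleucine breakdown, read 6707 (MEF), 4655 and 2915 (iLC), and 24039 and 18566 (Leydig). It was lower in iLC than in Leydig cells (log2 difference -2.51, limma adjusted p = 0.00989, lost without iLC replicate 2 or either Leydig array), and so was Bckdhb (-1.58, adjusted p = 0.0231, lost when any single iLC or Leydig array was left out). Hsd17b10's RNase P partners Trmt10c (-0.11) and Prorp (-0.24) were not called in that comparison. Between iLC and MEF 0 were called (median 0.35), with Auh at 1.50 and Hibch at 1.11, and between Leydig cells and MEF 0 were called (median 1.04), with Echs1 at 1.87 and Acat1 at 1.65. The median for iLC minus Leydig was -0.41.

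Across genes, the correlation of log2 values was 0.978 within the iLC pair and 0.961 within the Leydig pair, and array medians were 1111 to 1230. Of 7 measured Leydig markers, 4 were higher in Leydig cells than in MEF and 1, Hsd3b1, in iLC, and their summed intensity was 12880 (MEF), 104500 and 174800 (iLC), and 403000 and 644800 (Leydig). Insl3, Lhcgr and Hsd3b6 were not measured. Most of the iLC sums came from Star, Ptgds and Hsd3b1. Star read 56878 and 73892 in iLC, and 1368 and 19703 on the Leydig arrays, without passing. Cyp17a1, Nr5a1 and Gata4 were not called between iLC and MEF, and were called lower in iLC than in Leydig cells. Cyp11a1, a defining marker, read 510 and 451 on the Leydig arrays, 603 and 907 on the iLC arrays and 562 on the MEF array, and was called in no comparison. Whether its probe detects the transcript was not tested. Summed germ cell and Sertoli markers were higher on the Leydig arrays than on the other arrays. The sum of 8 germ cell markers was 4773 (MEF), 6232 and 5362 (iLC), and 30210 and 390300 (Leydig), with 5 of 8 called lower in iLC than in the Leydig pair, and also 2 higher in Leydig cells than in MEF. The sum of 8 Sertoli markers was 30940 (MEF), 58050 and 92830 (iLC), and 393800 and 525900 (Leydig), with 3 called in each of the same comparisons. Most of the Leydig sums came from Clu (332720 and 369002) and Aard (50609 and 147767). The list's median log2 difference for Leydig minus MEF was 0.30. Sox9 (-0.86), Amh (-0.65) and Rhox5 (-1.08) were below 0 there without passing. The sum of 8 fibroblast markers was 112300 on Leydig replicate 1 and 26990 on Leydig replicate 2, against 1057000 on the MEF array and 446100 to 569300 in iLC. Most of the Leydig sums came from Col1a2 (77886 and 16129) and Col3a1 (30186 and 3266). Postn, Thy1 and Tbx15 instead read higher on Leydig replicate 2. Akr1c14 also read higher on Leydig replicate 1, and read 284 to 351 on the iLC and MEF arrays. Of the 8 fibroblast markers, 5 were lower in Leydig cells than in iLC and in MEF. Smooth muscle markers gave 34190 and 49710 on the Leydig arrays, 479800 to 538200 in iLC and 595600 on the MEF array, with 5 of 6 lower in Leydig cells in both comparisons. In the same order of Leydig, iLC and MEF, macrophage markers gave 17070 and 21210, 27430 to 53970 and 89020, with 2 of 7 higher in iLC than in Leydig cells and 4 lower in Leydig cells than in MEF. Endothelial markers gave 14510 and 10400, 6321 to 7234 and 5004, with Cdh5 called in both Leydig comparisons. Epididymal markers gave 18450 to 20630, 19630 to 20150 and 15500 with 0 of 5 called. Adrenal markers gave 95430 and 163500, 24120 to 27590 and 1570, and most of the Leydig sums came from Mrap (94209 and 160866). Mrap was the 1 of 5 called lower in iLC than in the Leydig pair, and it was called higher than in MEF in both iLC and Leydig cells. Its call between iLC and MEF was lost when any single iLC or Leydig array was left out. The 2 called higher in iLC than in the Leydig pair were Cyp11b1 and Mc2r. Cyp11b1 read 13429 and 12027 in iLC, and 322 and 1730 on the Leydig arrays. Intensities have no true zero, so no marker could be placed at 0. The part of other cells in the differences between Leydig cells and the cultures was not tested.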

How the data were processed

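Amplified RNA carrying Cy5 was put on 1 array per sample, per the labels' protocols. What the authors deposited is a linear intensity per probe, after processing whose background step, scaling and program no source used here names. Titles set the groups: 1 MEF, 2 iLC and 2 Leydig arrays. Of 26423 probes, 21876 had 1 gene symbol in the platform annotation, 0 had several and 4547 had none. For the 2424 genes with several probes the brightest was used, giving 19084 genes. Values below 0 were set to 0, 16 was added and log2 taken, which shrinks differences of dim genes. The low ends of the arrays differed, with minima from -47.3 to 48.0, so a dim probe can differ by its array's offset. Detection calls were not used here.

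The test was limma 3.58.1 (R 4.3.3), with a mean for each group and all 5 arrays in the model (2 residual and 4.19 prior degrees of freedom), two-sided, with Benjamini-Hochberg adjustment over all genes of a comparison and a threshold of 0.05. The single MEF array borrows its spread from the 2 pairs. The number of arrays limits the precision. The fit was tested on simulated data. The enzymes and gene lists were chosen with earlier results of these data known. Named genes were all measured enzymes, up to 4 called genes of each list and comparison, or the 2 with the largest differences where none was called, and the 3 genes nearest in pattern; Papss1, Nr3c1, Trmt10c, Prorp, Akr1e1, Akr1c20, Akr1c21, the delivered factors and the markers were named after their values were seen. Alternatives changed the added constant (1 or 100), the low end (floor at the 20th percentile, or the 1st percentile subtracted), the scaling, a filter on the dimmest 25% of genes, the choice of probe, the variance model, the arrays in the fit and a replicate block. Promoters came from RefSeq's GRCm38.p6 table and were used for 7 of the 8 measured enzymes. The reading step left out the entries of a single chromosome, and no entry was used for Hsd17b4. The order of the Akr1c row came from start positions in RefSeq's gene annotation. Probe coordinates were not used, since the array's build is not given.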

Additional observations from a re-analysis of the deposited data

How the results depend on the processing

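Of 352 recomputed differences of the 8 enzymes (24 differences, 14 or 16 alternatives each), 305 kept their direction and side of the threshold, 18 lost a call, 21 gained one and 8 turned sign, none of the 8 a call. These were Akr1c14 between iLC and MEF with aligned low ends (0.12) and, with single arrays left out, Hsd17b4 (-0.018 to 0.63) and Hsd17b10 (-0.062 to 0.56) between iLC and MEF, lowest without iLC replicate 2, Sult1e1 between iLC and Leydig cells (-2.68 to 2.38; 1.44 without iLC replicate 1 and 2.38 without Leydig replicate 2), Hsd17b4 there (-0.16 to 0.49; -0.16 without iLC replicate 2 and -0.01 without Leydig replicate 2) and Hsd17b4 between Leydig cells and MEF (-0.028 to 0.32, lowest without Leydig replicate 1). Of the enzymes, 1 (Akr1cl) was called between iLC and MEF when 100 was added, with the floor, median centring, quantile normalization, dim genes left out or an intensity trend, against 0. Between Leydig cells and MEF, 1 was called when 1 was added and with aligned low ends, and 5 with the floor, quantile normalization and dim genes left out, against 3; without 1 array, 1 to 2. Between iLC and Leydig cells, against 4, 3 were called when 1 was added and with aligned low ends. There 5 were called when 100 was added, with the floor, median centring or quantile normalization. With dim genes left out, the mean of a gene's probes or an intensity trend, 5 were called as well. Fewer than 4 were called without 1 array. Over all genes between iLC and MEF, 109 were called (54 higher, 55 lower), and 9 (7 and 2) when 1 was added, 305 when 100 was added, 328 with the floor, 6 (6 and 0) with aligned low ends, 415 (157 and 258) with median centring, 363 with quantile normalization, 231 with dim genes left out, 249 with an intensity trend and 0 to 0 without 1 array (limma, with 2137 to 2881 genes under 0.05 before adjustment). With an array left out there is 1 residual degree of freedom. Between iLC and Leydig cells 2181 were called and 704 to 1267 without 1 array, and between Leydig cells and MEF 1408 and 149 to 963. The replicate block gave 3443 calls over all genes and 4 enzymes between iLC and Leydig cells, with 1 residual degree of freedom and a prior without limit; deviations of same-numbered arrays correlated at 0.055, so the numbers were not taken as a pairing. The median difference of all genes between iLC and MEF moved from -0.11 to 0.052 with quantile normalization. Of 30 calls among the listed other genes, 7 held with any single iLC or Leydig array left out. For other changes the cause was not tested.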
